A study of Mus musculus with 6 samples.

Results

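ETS transcription factors are proteins that share a DNA-binding domain, the ETS domain, which recognises sites with a GGAA core. *Etv1*, *Etv4* and *Etv5* form the PEA3 subfamily, whose proteins activate transcription, are switched on by phosphorylation through the ERK pathway and are marked for breakdown by the ubiquitin ligase COP1. Macrophages depend on another ETS factor, PU.1, the product of *Spi1*, for their identity, and also use ETS repressors such as ETV3 and ETV6.

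The 10 genes described here are *Etv1*, *Etv4*, *Etv5*, *Etv3*, *Etv6*, *Ets2*, *Spi1*, *Elf4*, *Fli1* and *Gabpa*, chosen by symbol from the 24786 gene symbols of the deposited table, and each of them had a row. Messenger RNA was measured in Raw264.7, a mouse macrophage line that arose from a tumor induced by Abelson leukemia virus and to which the labels give the strain C57BL/6. Cells carried a lentiviral control shRNA (sh-NC, n = 3 libraries) or a lentiviral shRNA against *Etv5* (sh-*Etv5*, n = 3 libraries), in the same culture medium. All 6 libraries thus come from 1 cell line that was infected with virus. The labels do not tell which of the published *Etv5* hairpins the sequenced cells carried, how long after infection they were taken, or whether libraries of a group were separate infections, so the p-values measure the spread between these libraries, which may be technical. The comparison asks how the other ETS genes stood when *Etv5* was partly lost.

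Values are labelled RPKM, a measure scaled by gene length and by mapped reads, and therefore levels can be compared between genes per length. How reads were counted for them is not given in the sources used here. Groups were compared with limma on log2(RPKM + 1), and genes at a Benjamini-Hochberg adjusted p under 0.05 over all 10738 genes that reached 1 RPKM in at least 3 libraries are called higher or lower. Sums of RPKM ran from 320462 to 322949 in sh-NC and from 330454 to 340257 in sh-*Etv5* libraries. All 8 macrophage markers were present in both groups. *Itgam*, *Adgre1* (2.60 against 11.3 RPKM) and *Cd14* were higher in sh-*Etv5*, *Lyz2*, *Csf1r*, *Cd68* and *Fcgr1* were lower, and *Ptprc* was not called. Their summed RPKM, of which *Lyz2* made up the most (2834 against 2041 RPKM), was 4333 to 4443 in sh-NC and 3406 to 3524 in sh-*Etv5*. Summed markers of other cells were low, at 0.0112 to 0.0238 RPKM in sh-NC and 0.764 to 1.10 RPKM in sh-*Etv5* for fibroblasts, and at 0.0367 to 0.199 and 0.256 to 0.733 RPKM for B cells, neither with overlap. T cell markers, at 0.0156 to 0.111 and 0.0488 to 0.181 RPKM, overlapped, and epithelial markers reached at most 0.0234 RPKM. Of 6 granulocyte markers, *Ly6g*, *Elane* and *S100a9* were listed at 0 in every library, while *S100a8* brought the sum from 0.190 to 0.579 RPKM in sh-NC to 15.6 to 19.7 RPKM in sh-*Etv5*. The part of these markers in the results on ETS genes was not tested. In such bulk samples, fewer cells with a transcript and less RNA of it per cell cannot be told apart.

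The *Etv5* hairpins are shown because they define the perturbation and because the PEA3 genes are alike in sequence. In GRCm38 with GENCODE release M21, *Etv5* lies on the minus strand at chr16:22381309-22439719, and each of the 3 published targets lies in its coding sequence. The target of Etv5-shRNA-1 joins exons 6 and 7 (chr16:22412845-22412854 and chr16:22411910-22411920), that of Etv5-shRNA-2 is in exon 3 (chr16:22436242-22436262), and that of Etv5-shRNA-3 joins exons 5 and 6 (chr16:22435877-22435889 and chr16:22412967-22412974). The lines give each target as read from the *Etv5* transcript in the sense direction, followed by the ungapped stretch of the same length in an *Etv1* or *Etv4* transcript with the fewest mismatches, where capitals mark the bases that differ from the *Etv5* target.
Etv5-shRNA-1 target: acaactattgtgcctacgata
closest in Etv1: acaaTGTCAgtgcctaTgatC
closest in Etv4: TTTactCCAgtgcctaTgaCT
Etv5-shRNA-2 target: gcgacctttgattgacagaaa
closest in Etv1: AAgaAAAttCattAacagaGa
closest in Etv4: gcgGAGGAtgaAAgGcGgaTa
Etv5-shRNA-3 target: cagtctgataacttggtgctt
closest in Etv1: cagtctCaAaacttggGCcAt
closest in Etv4: cGgGctCaCaactGTCtgctG

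*Etv1* differed from the 3 targets at 7, 8 and 5 of 21 bases, and *Etv4* at 9, 10 and 8. Among all members other than *Etv5*, the fewest mismatches were the 5 in *Etv1* for Etv5-shRNA-3. Over their longest annotated coding sequences, *Etv5* and *Etv1* were identical at 71.7% of aligned bases, *Etv5* and *Etv4* at 68.1% and *Etv1* and *Etv4* at 69.0%. How much of this identity is particular to the subfamily cannot be told, since gaps were allowed and no unrelated sequences were aligned. By share, members outside the subfamily ran from 812 of 1380 aligned bases identical to *Etv5* in *Etv3* to 534 of 812 in *Spi1*. The count for *Etv4* was 939 of 1378. The longest exact run shared with *Etv5* was 23 bases in *Etv1*, 23 in *Etv4* and also 23 in *Etv3*, which is outside the PEA3 subfamily. The runs within the subfamily are shown here because a read confined to such a run could come from either gene.
Etv5 and Etv1 run: tacaaatttgtgtgtgacccgga
Etv5 and Etv4 run: ggcatcatgcagaaggtggctgg
No 50-base sequence was shared between transcripts of any pair of the 10 members. Of the 50-base sequences of *Etv5*, 24.5% also occur in *Gm4798*, an annotated processed pseudogene on chromosome 10 that was not analysed here, and 9.08% of those of *Etv1* occur in other genes such as *Gm5454*, so that these levels carry that uncertainty.

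Every member differed between the groups. *Etv1*, *Etv4*, *Etv3*, *Ets2* and *Spi1* were higher in sh-*Etv5* cells, and *Etv5*, *Fli1*, *Etv6*, *Gabpa* and *Elf4* were lower. The background was high, since 74.3% of all genes tested were called (33.3% higher and 41.0% lower), and 76.4% of genes had groups with no overlap, so that 10 of 10 called members and 10 of 10 without overlap must be read against those shares. *Etv4* passed the filter on low values only through its sh-*Etv5* libraries and had to differ for that reason. The median absolute log2 fold change of the members was 0.60, or 0.52 without the targeted *Etv5*, beside 0.31 for all genes tested. An absolute log2 fold change above 0.5 together with the call was met by 6 members, or by 5 of the 9 other than *Etv5*, a criterion met by 30.9% of all genes tested. These counts and the medians of the members include *Etv4*, whose difference followed from the filter, so they overstate the contrast with all genes. The median of the signed values was -0.021 for the members and -0.049 for all genes.

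**Figure D1:**
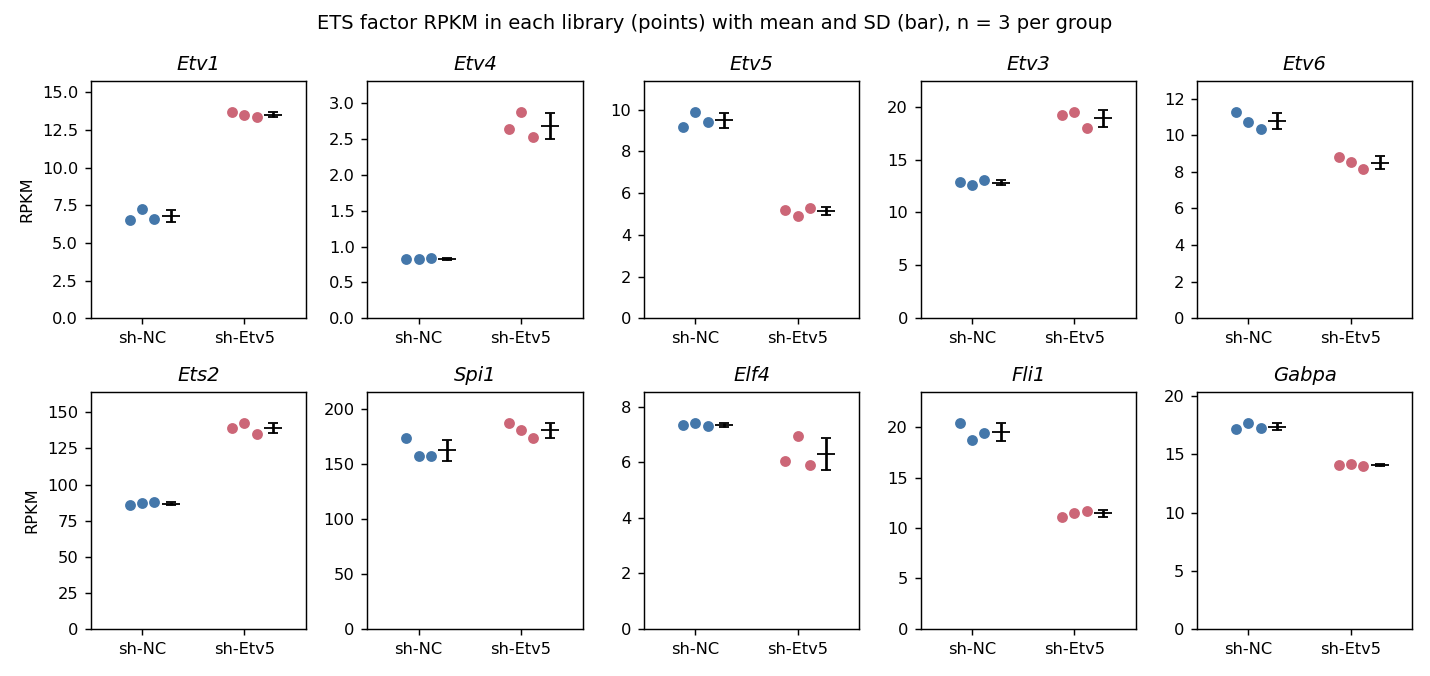
RPKM of the 10 ETS members (vertical axes from 0, 1 panel per gene) in each sh-NC library (blue) and sh-*Etv5* library (red), with the mean and SD of 3 libraries as a black bar. The groups stand apart in each panel, widely for *Etv1*, *Etv4*, *Etv5*, *Ets2* and *Fli1* and narrowly for *Spi1* and *Elf4*.

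Within the PEA3 subfamily, *Etv5* fell and its relatives rose. *Etv5* RPKM was 9.18, 9.89 and 9.39 in sh-NC replicates 1, 2 and 3, and 5.19, 4.91 and 5.28 in the corresponding sh-*Etv5* replicates. The knockdown was thus partial, with 54.0% of the mean sh-NC level left (log2 fold change -0.78, 95% confidence interval -0.90 to -0.65, limma adjusted p = 2.74e-07).

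*Etv1* (GRCm38 chr12:38779380-38870484, plus strand), which is also known for its role in neurons and heart conduction tissue, was at 6.50, 7.25 and 6.59 RPKM in sh-NC cells and at 13.7, 13.5 and 13.4 RPKM in sh-*Etv5* cells. All sh-*Etv5* libraries lay close together and far above the highest control. The mean rose 1.995-fold, with 6.78 ± 0.407 RPKM in sh-NC against 13.5 ± 0.165 RPKM in sh-*Etv5* (SD, n = 3). On the log2 scale the rise was 0.90 ± 0.0541 (standard error, limma adjusted p = 5.44e-08).

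*Etv4* (chr11:101769742-101785371, minus strand), the founding member of the subfamily and studied for its part in limb and kidney branching, was scarce. Its RPKM was 0.821, 0.821 and 0.845 in sh-NC libraries and 2.64, 2.88 and 2.54 in sh-*Etv5* libraries. The controls nearly coincided, and the lowest knockdown library was well above them. The ratio of means was 3.24 (0.829 ± 0.0135 to 2.69 ± 0.177 RPKM, SD, n = 3), the largest among the members, while the rise of 1.01 ± 0.0756 on the log2 scale (standard error, limma adjusted p = 3.41e-07) understates it because 1 was added to each value. That p-value is no independent support, since *Etv4* passed the filter only through its sh-*Etv5* libraries. In the fit without a filter, the limma adjusted p was 4.75e-05.

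In RPKM, *Etv5* fell by 4.36, *Etv1* gained 6.75 and *Etv4* gained 1.86. The summed RPKM of the 3 PEA3 genes was 16.5, 18.0 and 16.8 in sh-NC libraries and 21.5, 21.3 and 21.2 in sh-*Etv5* libraries. The PEA3 sum was therefore higher with less *Etv5*, in every library, with means of 17.1 ± 0.767 and 21.3 ± 0.172 RPKM (SD, n = 3). The share of *Etv5* in that sum went from 55.5% ± 0.381 to 24.0% ± 0.955, that of *Etv1* from 39.6% ± 0.625 to 63.4% ± 0.275, and that of *Etv4* from 4.86% ± 0.247 to 12.6% ± 0.823 (SD, n = 3). *Etv5* was the most abundant PEA3 transcript in each sh-NC library and *Etv1* in each sh-*Etv5* library. These sums are descriptions of messenger RNA, and the files hold no protein or activity values.

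**Figure D2:**
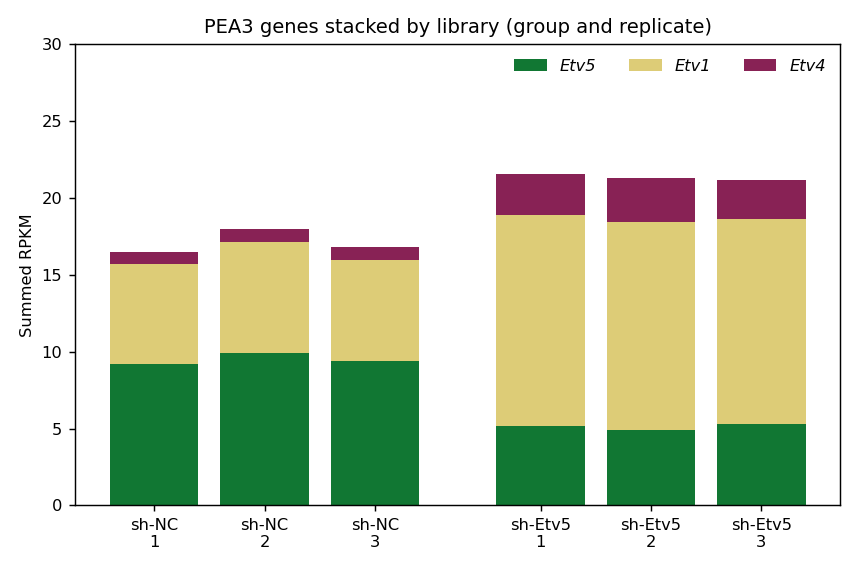
Summed RPKM of *Etv5* (green), *Etv1* (yellow) and *Etv4* (purple) stacked for each of the 6 libraries, labelled by group and replicate. The stacks reach 16.5 to 18.0 RPKM in sh-NC and 21.2 to 21.5 RPKM in sh-*Etv5* libraries, with a smaller green and a larger yellow block in the latter.

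The ETS repressors among the members moved apart. *Etv3* (chr3:87525407-87540156, plus strand), a repressor linked to the growth arrest of differentiating macrophages, was at 12.9, 12.6 and 13.0 RPKM in sh-NC cells and at 19.2, 19.5 and 18.0 RPKM in sh-*Etv5* cells. It rose 1.47-fold, with no overlap (log2 fold change 0.52, standard error 0.047, limma adjusted p = 1.54e-06).

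*Etv6* (chr6:134035700-134270158, plus strand), a repressor needed for blood stem cells in the bone marrow, was at 11.3, 10.7 and 10.4 RPKM in sh-NC cells and at 8.83, 8.51 and 8.13 RPKM in sh-*Etv5* cells. The highest knockdown library was below the lowest control. Its mean fell by 21.2% (log2 fold change -0.31, standard error 0.0543, limma adjusted p = 0.000326). An exon of *Etv6* overlaps *Gm17089* on the opposite strand, and the sources used here do not say whether strand was used in counting.

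*Erf*, a further ETS repressor that ERK inactivates and that is not one of the 10, was at 10.3, 9.77 and 10.3 RPKM in sh-NC cells and at 4.55, 5.73 and 4.46 RPKM in sh-*Etv5* cells, and its mean fell by 51.4% (log2 fold change -0.92, limma adjusted p = 1.14e-06). The RPKM of *Etv3*, *Etv6* and *Erf* together was 33.1 to 34.4 in sh-NC and 30.6 to 33.7 in sh-*Etv5* libraries, so that the groups overlapped in this sum although each gene was called. With libraries rescaled to the same sum of RPKM, the same total was 33.8 to 35.0 in sh-NC and 29.5 to 33.5 in sh-*Etv5* libraries, without overlap.

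*Ets2* (chr16:95702075-95721051, plus strand), an activator that ERK phosphorylates and that drives inflammatory genes in macrophages, rose from 85.6, 87.4 and 87.6 RPKM to 139, 143 and 135 RPKM. Its level was the second of all ETS genes in both groups, and its difference in RPKM (52.3) was the largest among the members. The means were 86.9 ± 1.12 and 139 ± 3.78 RPKM (SD, n = 3), a rise of 0.67 ± 0.0334 on the log2 scale (standard error, limma adjusted p = 1.16e-08).

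*Spi1* (chr2:91082390-91115756, plus strand) was the most abundant ETS transcript. It was at 174, 157 and 157 RPKM in sh-NC cells and at 188, 181 and 174 RPKM in sh-*Etv5* cells. The groups barely cleared each other, since sh-NC replicate 1 (173.6 RPKM) lay just under sh-*Etv5* replicate 3 (173.9 RPKM). It rose by 0.15 on the log2 scale, with a 95% confidence interval of 0.053 to 0.25 (limma adjusted p = 0.0101). The call was lost when libraries were rescaled to the same sum of RPKM (log2 fold change 0.092, limma adjusted p = 0.0778) and when no filter was applied (limma adjusted p = 0.0565).

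Of the remaining members, *Fli1* (chr9:32422204-32542861, minus strand), a factor of blood and endothelial cell development, fell most. Its RPKM was 20.4, 18.7 and 19.4 in sh-NC libraries and 11.1, 11.5 and 11.7 in sh-*Etv5* libraries. The groups were far apart, and the mean fell by 41.4%, which left 11.4 ± 0.322 of 19.5 ± 0.884 RPKM (SD, n = 3, log2 fold change -0.72, standard error 0.0489, limma adjusted p = 1.52e-07). The *Fli1* confidence interval of -0.83 to -0.61 overlaps that of *Etv5*, and the difference between the 2 changes was not tested.

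*Gabpa* (chr16:84834925-84863779, plus strand), the DNA-binding subunit of the GABP complex that serves many mitochondrial and housekeeping genes, was at 17.2, 17.7 and 17.3 RPKM in sh-NC cells and at 14.1, 14.2 and 14.04 RPKM in sh-*Etv5* cells. The knockdown libraries differed little among themselves, and the mean fell by 18.9% (log2 fold change -0.28, standard error 0.042, limma adjusted p = 9.35e-05). An exon of *Gabpa* overlaps *Atp5j* on the opposite strand, and 4.46% of its 50-base sequences occur in that gene.

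*Elf4* (chrX:48411046-48463132, minus strand), known for a part in interferon induction and in natural killer cells, changed least among the members that fell. It was at 7.33, 7.42 and 7.29 RPKM in sh-NC cells and at 6.05, 6.95 and 5.90 RPKM in sh-*Etv5* cells. The sh-*Etv5* replicate 2 lay nearer to the controls than to its own group. Its mean fell by 14.2% (log2 fold change -0.19, standard error 0.0648, limma adjusted p = 0.0181). That call was lost without sh-NC replicate 2 (limma adjusted p = 0.0505), without sh-*Etv5* replicate 1 (0.0594) or without sh-*Etv5* replicate 3 (0.0581), within a range of 0.00267 to 0.0594 over the libraries left out in turn.

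**Figure D3:**
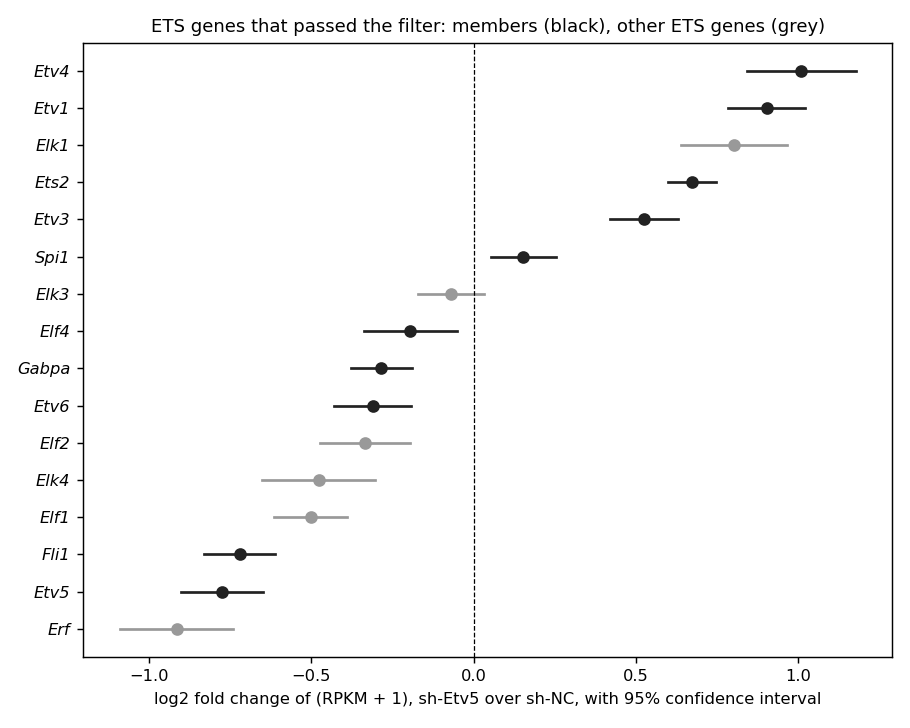
Log2 fold change of RPKM + 1 in sh-*Etv5* over sh-NC (horizontal axis) with its 95% confidence interval for the 16 ETS genes that passed the filter, members in black and other ETS genes in grey. The values run from -0.92 for *Erf* to 1.01 for *Etv4*, and the interval of *Elk3* includes 0.

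The rest of the ETS family was read from a list of 17 symbols, of which 16 had a row and 6 passed the filter. Of these 6, *Elk1* was higher, *Erf*, *Elf1*, *Elk4* and *Elf2* were lower, and *Elk3* was not called, so that 83.3% were called beside 74.3% of all genes. With libraries rescaled to the same sum of RPKM, *Elk3* was called too, which made 5 lower. *Elk1*, which binds with serum response factor at genes induced by ERK, was at 6.63, 6.07 and 5.49 RPKM in sh-NC cells and at 11.3, 12.2 and 10.4 RPKM in sh-*Etv5* cells (log2 fold change 0.80, limma adjusted p = 1.97e-06). Its relatives in that role differed, as *Elk4* went from 6.45 ± 0.270 to 4.37 ± 0.565 RPKM (log2 fold change -0.48, limma adjusted p = 0.000208) and *Elk3* from 19.2 ± 0.340 to 18.3 ± 0.831 RPKM (SD, n = 3, 95% confidence interval of the log2 fold change -0.17 to 0.032, limma adjusted p = 0.191).

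*Elf1*, a close relative of *Elf4* expressed in blood cells, fell from 20.6 ± 0.278 to 14.3 ± 0.915 RPKM (SD, n = 3, log2 fold change -0.50, limma adjusted p = 4.37e-06), and *Elf2* from 7.96 ± 0.194 to 6.12 ± 0.484 RPKM (SD, n = 3, log2 fold change -0.33, limma adjusted p = 0.000543). Exons of *Elf1*, *Elf2*, *Elk3* and *Elk4* overlap genes on the opposite strand, and those of *Elk1* and *Elk4* overlap *Uxt* and *Gm29103* on the same strand. *Etv2*, *Elf5*, *Ehf* and *Spic* were listed at 0 in every library, and *Ets1*, *Erg*, *Fev*, *Elf3*, *Spib* and *Spdef* never exceeded 0.0699 RPKM, the value of *Spib* in sh-*Etv5* replicate 3. None of these 10 genes came near the filter in either group.

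Summed over the 26 ETS genes with a row, RPKM was 399 to 416 in sh-NC and 444 to 469 in sh-*Etv5* libraries, a total in which *Spi1* and *Ets2* took the largest shares. *Ets2* made up 21.5% ± 0.774 of it in sh-NC and 30.3% ± 0.351 in sh-*Etv5* cells, and *Spi1* 40.1% ± 1.38 and 39.3% ± 0.791 (SD, n = 3). Without *Spi1* and *Ets2*, the sum of the other 24 genes ran from 155 to 157 RPKM in sh-NC and from 135 to 145 RPKM in sh-*Etv5* libraries. The direction of the sum over the family therefore turned on these 2 abundant genes.

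The order of levels changed below *Spi1* and *Ets2*. In sh-NC cells, the next places were held by *Elf1*, *Fli1* and *Elk3*, whose neighbours in that order overlapped, followed by *Gabpa*, *Etv3* and *Etv6*, which were separate from each other. *Etv5* was in place 10 of 16, overlapping with *Erf*, and *Etv1* in place 13, overlapping with *Elk4*. In sh-*Etv5* cells, *Etv3* moved to place 3 and overlapped with *Elk3*. *Etv1* moved to place 7, between *Gabpa* and *Fli1* and separate from both, while *Fli1* moved from place 4 to place 8 and overlapped with *Elk1*. *Etv5* moved to place 13 and again overlapped with *Erf*, and *Etv4* was last in both groups.

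**Figure D4:**
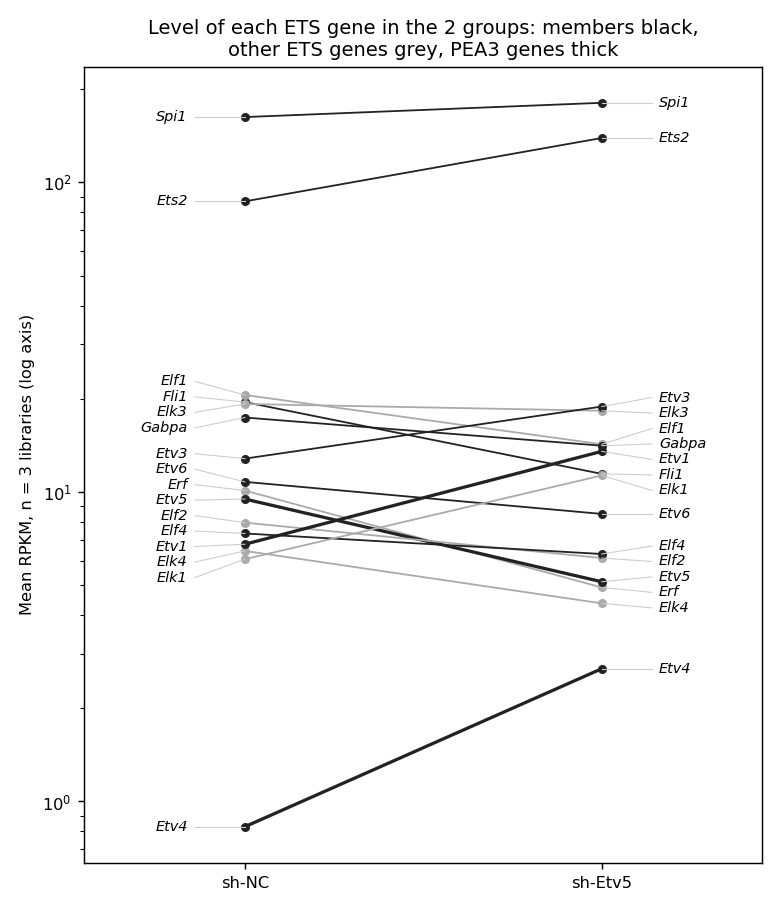
Mean RPKM (log axis) of the 16 ETS genes that passed the filter in sh-NC (left) and sh-*Etv5* (right), 3 libraries each, with members in black, other ETS genes in grey and PEA3 genes as thick lines. *Etv1* (6.78 to 13.5 RPKM) and *Etv5* (9.49 to 5.13 RPKM) cross, and *Etv4* stays lowest.

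PEA3 factors are controlled by the repressor CIC with its partners ATXN1 and ATXN1L, by COP1 and DET1 with the CUL4 and DDB1 ligase, by the ERK kinases and by the coactivators EP300 and CREBBP, and *Dusp*, *Spry* and *Spred* genes are known outputs that restrain ERK. Of 22 symbols in a list of these genes, 1 of them an older name of *Cop1*, 21 had a row and 19 were tested, with 7 higher, 8 lower and 4 not called, or 78.9% called beside 74.3% of all genes. The median log2 fold change was 0.046, beside -0.049 for all genes tested. The largest changes were rises of *Dusp4* (38.2 ± 0.374 to 104 ± 4.09 RPKM, log2 fold change 1.42, limma adjusted p = 8.81e-11) and *Dusp6* (13.4 ± 1.05 to 31.6 ± 0.368 RPKM, SD, n = 3, log2 fold change 1.18, limma adjusted p = 5.8e-09), phosphatases that act on ERK. *Spry2*, a feedback inhibitor of receptor tyrosine kinase signaling, rose by 0.71 on the log2 scale (limma adjusted p = 1.14e-05) and passed the filter only through its sh-*Etv5* libraries, whereas *Spred1* fell by 0.55 (limma adjusted p = 6.68e-08).

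Of the controllers, *Atxn1* rose from 1.69 ± 0.145 to 3.54 ± 0.226 RPKM (SD, n = 3, log2 fold change 0.76, limma adjusted p = 3.78e-06). *Cic*, the repressor of PEA3 genes, was at 17.8, 17.0 and 17.3 RPKM in sh-NC cells and at 14.1, 15.4 and 12.2 RPKM in sh-*Etv5* cells, and fell by 20.1% (log2 fold change -0.31, limma adjusted p = 0.0019). *Cop1* was at 3.18, 3.21 and 2.47 RPKM in sh-NC cells and at 4.47, 4.53 and 3.64 RPKM in sh-*Etv5* cells (log2 fold change 0.40, limma adjusted p = 0.00301). Replicate 3 was the lowest of its group for *Cop1* on both sides, and the groups did not overlap. The ERK1 gene *Mapk3* rose by 0.44 on the log2 scale (limma adjusted p = 4.35e-06), and the MEK gene *Map2k1* rose by 0.57 (limma adjusted p = 2.78e-08).

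**Figure D5:**
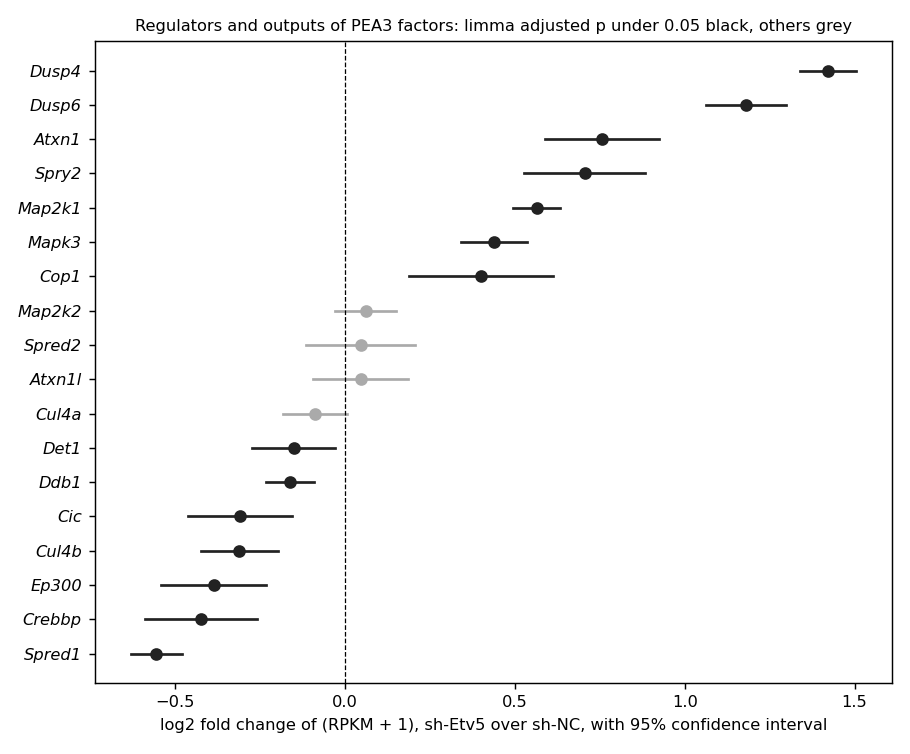
Log2 fold change of RPKM + 1 in sh-*Etv5* over sh-NC (horizontal axis) with its 95% confidence interval for 18 of the 19 tested genes that control PEA3 factors or are their outputs, black where the limma adjusted p was under 0.05 and grey otherwise. The values run from -0.55 for *Spred1* to 1.42 for *Dusp4*, with 7 of the plotted genes higher and 7 lower, and the gene not plotted was also lower.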

How the data were processed

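Polyadenylated RNA of 3 sh-NC and 3 sh-*Etv5* libraries of Raw264.7 cells was sequenced by the authors after preparation with an Illumina TruSeq kit. The authors deposited RPKM values in 1 table, whose column names refer to coverage tracks, with mm10 (GRCm38) named in the submitters' processing notes. The aligner, the counter, the annotation and strand use are not given in the sources used here. As the values are scaled to mapped reads, a change of very abundant genes moves the values of every other gene.

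Whole reads could not be recovered, since only 3.9% to 7.1% of low genes shared the most frequent ratio to sh-NC replicate 1. That ratio put the relative depths at 0.897 to 1.06. The absolute depth is unknown, and no counting interval was computed.

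Genes at 1 RPKM or more in at least 3 libraries were kept (10738). Group means of log2(RPKM + 1) were compared two-sided in R 4.3.3 by limma 3.58.1, with eBayes moderation that follows mean expression and no covariate, and p-values were adjusted over all genes tested. The smallest p of an exact permutation test with 3 libraries a group is 0.1, and each member was tested with limma. The fit was tested on simulated data. Exons and transcript sequences came from GENCODE release M21, and steps outside limma used Python 3.11.15 with pandas 2.3.3.

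The members and the gene lists were chosen with earlier results of these data known. Named were all members, other ETS genes that passed the filter, and up to 5 called genes with the largest change in each of the lists of PEA3 control and output, PU.1 targets and ETS partners, plus the 3 genes nearest to *Etv5*. *Cic*, *Cop1*, *Mapk3*, *Spred1* and the genes at 0 were named after their values were seen. Some genes of the lists count in the totals but are not reported here by name. Alternatives were leaving the filter out or asking for a mean RPKM of 5 or more, pseudocounts of 0.1 and 0.01, rescaling to the same sum or by genes outside the top 10, quantile normalization, no trend, a replicate block, an added limit of 0.5 on the log2 fold change, and each library left out in turn.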

Additional observations from a re-analysis of the deposited data

How the results depend on the processing

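No member changed direction under any alternative. *Spi1* lost its call without a filter (log2 fold change 0.15, limma adjusted p = 0.0565) and with libraries rescaled to the same sum (0.092, limma adjusted p = 0.0778), and *Elf4* ranged from -0.26 to -0.16 over the libraries left out in turn and lost its call in 3 of them. *Etv4* could not be fitted with a mean RPKM of at least 5 or without any of the sh-*Etv5* libraries, because it then failed the filter. With a limit of 0.5 on the absolute log2 fold change, the lower members went from 5 to 2, the lower other ETS genes from 4 to 2, and all genes to 1711 higher and 1611 lower, from 3575 and 4399. Without a filter, 2 other ETS genes were higher, since *Spib*, at most 0.0699 RPKM, was added, and with a mean RPKM of at least 5 the list of PEA3 control and output had 4 higher genes in place of 7. *Atxn1*, *Cop1* and *Spry2*, which were called higher in the main fit, had means under 5 RPKM in both groups and so left that fit. The cause of the other changes in call was not tested. Libraries of the same number did not deviate together from their group means over all genes tested (correlations 0.0739, -0.0710 and -0.0352). With 3 libraries a group, such values cannot tell whether libraries of the same number were handled together. With the replicate number as a block, 5 members were higher and 5 lower, and all genes came to 3539 higher and 4361 lower. Rescaling to the same sum, for summed RPKM chosen after seeing the data, left the PEA3 sum at 16.8 to 18.4 in sh-NC and 20.4 to 21.2 in sh-*Etv5* libraries. The unknown read depth limits statements on ETS genes below 1 RPKM.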

Other observations

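Genes that PU.1 is known to activate in myeloid cells did not move together. Of 19 such genes, all tested, 8 were higher, 10 were lower and 1, *Cyba*, was not called (94.7% called beside 74.3% of all genes), with a median log2 fold change of -0.36 beside -0.049 for all genes tested. *Itgam*, an integrin chain of macrophages, rose from 33.8 ± 0.746 to 127 ± 7.21 RPKM (SD, n = 3, log2 fold change 1.88, limma adjusted p = 3.2e-11). *Ncf1*, which encodes a subunit of the NADPH oxidase, fell by 0.77 on the log2 scale (limma adjusted p = 2.41e-09). *Csf1r*, the receptor for M-CSF, fell from 428 ± 4.56 to 244 ± 6.72 RPKM (SD, n = 3, log2 fold change -0.81, limma adjusted p = 1.9e-09), while *Spi1* itself differed by 0.15.

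Of 15 symbols of factors that work beside ETS proteins, 14 had a row and 13 were tested, with 4 higher, 8 lower and 1 not called (92.3% called beside 74.3% of all genes). *Gabpb2*, which encodes a partner of GABPA, fell from 16.8 ± 0.658 to 8.37 ± 0.559 RPKM (SD, n = 3, log2 fold change -0.92, limma adjusted p = 6.75e-08), a larger change in size than that of *Gabpa* (-0.28), although the difference between them was not tested. *Cebpa*, a factor of early myeloid cells, fell from 17.3 ± 1.01 to 6.29 ± 0.523 RPKM (SD, n = 3, log2 fold change -1.33, limma adjusted p = 1.01e-08), and *Mef2c* fell by 1.19 on the log2 scale (limma adjusted p = 7.4e-10). *Cebpb*, a factor of inflammatory gene expression, rose from 73.9 ± 2.21 to 134 ± 3.81 RPKM (SD, n = 3, log2 fold change 0.85, limma adjusted p = 3.68e-09), and *Irf8*, which binds DNA together with PU.1, rose from 25.9 ± 0.904 to 47.4 ± 0.927 RPKM (SD, n = 3, log2 fold change 0.85, limma adjusted p = 7.23e-09).

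By the mean absolute difference of centred log2(RPKM + 1) over the 6 libraries, the tested genes nearest to *Etv5* were *Cdca3* (0.0102), *Mb21d1* (0.0159) and *Cnr2* (0.0244). Their log2 fold changes of -0.78, -0.81 and -0.81 follow from that choice, which used the same libraries, and are a description. *Cdca3* was at 36.9, 38.6 and 36.6 RPKM in sh-NC and at 21.5, 20.5 and 21.9 RPKM in sh-*Etv5* libraries.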
